A study of Rattus norvegicus with 16 samples.

Results

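Interval training was compared with sedentary life in the left ventricle of rats from 2 selectively bred lines, with the training difference estimated once for both lines together. The trained group was every array titled Exercise Trained and the sedentary group every array titled Sedentary, which gave 8 and 8 of the 16 arrays in the series, and all probe sets other than the Affymetrix controls were used. Genes are described here that differed in the same direction in both lines.

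The animals were female rats of about 7 months, from generation 16 of lines started from N:NIH stock and bred for how far they ran when tested near the age of 11 weeks. In the High Capacity Runner line (HCR), rats 3, 4, 5 and 6 were trained and rats 3, 4, 5 and 6 of a sedentary set were their controls. In the Low Capacity Runner line (LCR), rats 1, 2, 3 and 4 were trained, and rats 2, 3, 5 and 6 were sedentary. Trained rats ran up a 25 degree incline for 1.5 hours a day on 5 days a week during 8 weeks. Hard bouts of 8 minutes (85 to 90% of maximal oxygen uptake) took turns with 2 minutes of easier running (50 to 60%). The sedentary rats were of the same age. Values are averages over all cell types of the tissue. How long after the last run the hearts were taken was not stated in the labels. The 2 lines are products of 1 selection experiment, so each line stands for its own breeding history as well as for its running capacity.

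The values are log expression values, read as log2, in which a difference of 1 would be a 2-fold change. Any 2 of the 16 arrays had a correlation of 0.984 to 0.995 over probe sets, and no array median, spread or leading principal component differed detectably between trained and sedentary arrays (exact permutation within line, 2-sided, p between 0.138 and 0.551 for 4 properties, adjusted 0.385 to 0.551, where the smallest possible p was 0.000408). Those tests pool the lines. Within HCR, the first component averaged -2.54 in trained and -18.1 in sedentary rats, the interquartile range 2.13 and 2.02, and the median 5.89 and 5.93, with overlap in each. Within LCR the first component averaged 10.2 in trained and 10.4 in sedentary rats, the interquartile range 2.15 and 2.17, and the median 5.88 and 5.87. The part of these shifts in the gene results was not tested. Markers of ventricular cardiomyocytes were bright on all arrays, for example Myl2 with a mean of 14.30 and Myh6 with 13.89. The array of 1 rat went against the label female. Xist, the RNA that coats the silenced X chromosome of females, was at 3.76 to 4.94 (4 probe sets) in HCR sedentary rat 5, against 7.56 to 10.34 in the other 15 rats. Eif2s3y, a Y-linked gene, read 3.53 on that array, against 3.33 to 3.5 on the others, and 2 probe sets of Uty, also Y-linked, were not higher there. The leading results are therefore also given without that rat.

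Endurance training is known to enlarge the heart without failure, to raise its capacity to burn fatty acids and to alter growth signalling in cardiomyocytes. Immediate early genes such as Fos and Egr1 encode transcription factors that are switched on within minutes by stretch, hormones or other stimuli and are switched off again soon after. Mitochondrial genes, genes of lipid handling and genes of the cell cycle are the other groups that studies of trained hearts usually follow.

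Across both lines, the genes of lowest p were higher in trained rats: Ppm1j, a protein phosphatase of the PP2C family, by 0.47 ± 0.07 (SE), and Csdc2, an RNA-binding protein with a cold shock domain, by 0.62 ± 0.11. The lowest p among lower genes was that of Colgalt2, a collagen galactosyltransferase, at -0.24 ± 0.05, and far larger but more variable differences were those of the immediate early genes Fos (-1.28 ± 0.41) and Egr1 (-0.99 ± 0.27). None of them passed the test. In bulk tissue a lower value can mean fewer cells of a type or less RNA per cell, and these cannot be told apart. With limma and line as a covariate, 0 of 31042 probe sets (0%) reached an adjusted p of 0.05, and the lowest adjusted p was 0.0745, for Ppm1j. At an unadjusted p under 0.05 there were 2659 probe sets (8.57%), 1387 of them higher (4.47%) and 1272 lower (4.1%) in trained rats. Leaving out HCR sedentary rat 5, limma again called 0 probe sets, with 2067 at an unadjusted p under 0.05 and a lowest adjusted p of 0.24. Effects were small: 37 probe sets differed by 1.5-fold or more and 2 by 2-fold or more, and the 95% interval reached a median of 0.118 to either side of the difference. All statements on genes below are thus measured differences that did not pass the threshold, unless another fit is named.

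Ppm1j had the lowest p of all probe sets. It read 8.37, 8.02, 8.16 and 8.03 in HCR trained rats, against 7.53, 7.45, 7.62 and 7.78 in HCR sedentary rats. In LCR it read 8.16, 8.26, 7.94 and 8.30 in trained rats, against 7.79, 7.75, 7.91 and 7.67 in sedentary rats. Every trained rat of a line lay above every sedentary rat of that line, by a narrow margin of 7.94 against 7.91 in LCR. The difference was 0.55 ± 0.09 in HCR and 0.39 ± 0.09 in LCR, a pooled fold of 1.38, and the lines did not differ detectably in it (interaction adjusted p = 0.67, limma). Without HCR sedentary rat 5 the pooled difference was 0.47, with an adjusted p of 0.24. Ppm1j did pass in 4 other limma fits on all arrays, at an adjusted p of 0.031 (1 probe set per gene) to 0.0439 (array weights), and without LCR trained rat 2 (0.0416) or rat 3 (0.0116).

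Csdc2 read 8.13, 8.24, 8.27 and 8.03 in HCR trained rats, against 7.71, 7.21, 7.81 and 7.40 in HCR sedentary rats. In LCR the trained rats read 7.83, 8.42, 7.94 and 8.58, against 7.73, 7.39, 7.51 and 7.75 in LCR sedentary rats. The groups did not overlap in either line, and the 2 lines gave nearly the same size, 0.64 ± 0.16 in HCR and 0.60 ± 0.16 in LCR (pooled fold 1.53, adjusted p = 0.156). Tmem116, a transmembrane protein, also had no overlap in either line, with 6.53 to 6.76 in HCR trained against 6.22 to 6.5 in HCR sedentary rats, and 6.87 to 7.12 in LCR trained against 6.49 to 6.76 in LCR sedentary rats. Its pooled difference was 0.32 ± 0.06 (adjusted p = 0.156), but another probe set of Tmem116 differed by -0.14.

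Among further higher genes of low p, Mtfp1, an inner membrane protein that promotes mitochondrial fission, read 9.05, 8.96, 8.70 and 8.87 in HCR trained rats, against 8.63, 8.62, 8.56 and 8.70 in HCR sedentary rats. In LCR it read 8.98, 8.92, 9.04 and 9.07 in trained rats, against 8.82, 8.60, 8.70 and 8.47 in sedentary rats. The groups touched at 8.70 in HCR and were apart in LCR, and the pooled difference was 0.31 ± 0.06 (adjusted p = 0.156). Dgat1, which catalyses the last step of triglyceride synthesis, read 9.42, 9.29, 9.22 and 9.35 in HCR trained rats, against 9.13, 9.18, 9.07 and 9.06 in HCR sedentary rats. The LCR trained rats read 9.44, 9.29, 9.43 and 9.25, against 9.10, 9.14, 9.13 and 9.04 in LCR sedentary rats. Its groups were apart in both lines, at a modest fold of 1.17 (0.23 ± 0.04, adjusted p = 0.156). Ptcd1, a mitochondrial RNA-processing protein, differed by 0.20 ± 0.04 (adjusted p = 0.218), with 0.21 in HCR and 0.19 in LCR.

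P2rx5, an ATP-gated ion channel, differed by 0.31 ± 0.06 with no overlap in either line, and its second probe set by 0.26. Nr0b2, a nuclear receptor that represses other receptors, differed by 0.24 ± 0.05, again with no overlap in either line. Both phosphomannomutase genes, which make the mannose donor for protein glycosylation, were higher: Pmm1 by 0.31 ± 0.07 and Pmm2 by 0.21 ± 0.04. Fbxo31, a substrate receptor of an SCF ubiquitin ligase, differed by 0.39 ± 0.08, Prxl2a by 0.35 ± 0.07, Tango2 by 0.28 ± 0.06, the inositol phosphatase Ocrl by 0.23 ± 0.05 and the splicing-associated Mfap1a by 0.20 ± 0.04. The adjusted p of these genes ran from 0.186 for Prxl2a, Ocrl, Nr0b2 and P2rx5 to 0.249 for Pmm1. In all of them the 2 lines had the same sign, since the same sign in both lines was part of how they were chosen. A brighter probe set of Tango2, with a mean of 10.63, differed by 0.13.

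**Figure D1:**
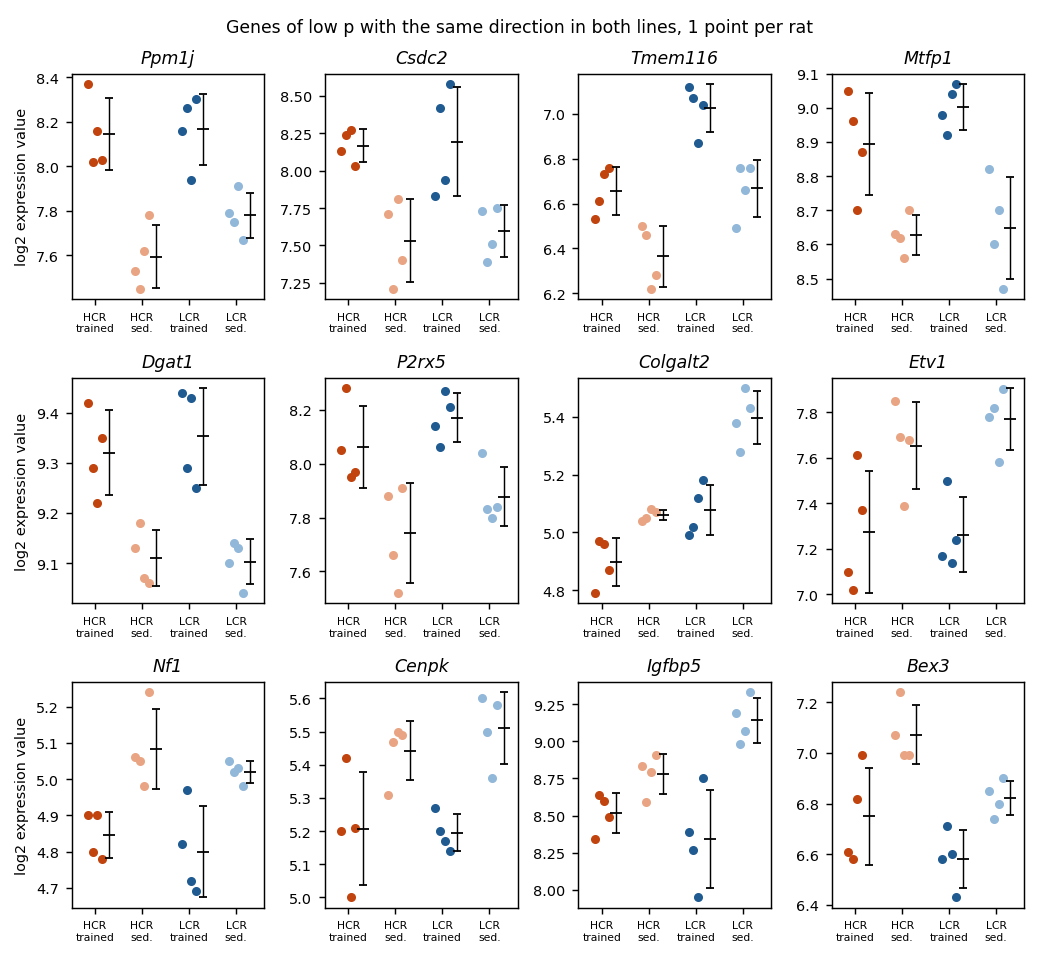
Log2 expression values (vertical axis of each panel) of 12 genes of low p, 1 point per rat, with trained rats left of sedentary rats in each line, and the group mean with its SD as the black bar. Ppm1j, Csdc2, Tmem116, Dgat1 and P2rx5 lie higher in trained rats with no overlap in either line, while Etv1, Cenpk and Igfbp5 overlap between HCR trained and HCR sedentary rats.

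Among genes lower in trained rats, Colgalt2 read 4.79, 4.97, 4.96 and 4.87 in HCR trained rats, against 5.04, 5.05, 5.08 and 5.07 in HCR sedentary rats. In LCR it read 4.99, 5.02, 5.12 and 5.18 in trained rats, against 5.38, 5.28, 5.50 and 5.43 in sedentary rats. The groups were apart in both lines, at a low signal, and the difference was -0.16 ± 0.06 in HCR and -0.31 ± 0.06 in LCR (adjusted p = 0.186 for the pooled -0.24). Nf1, the Ras inhibitor neurofibromin, was likewise low in signal and apart in both lines, with 4.78 to 4.90 in HCR trained against 4.98 to 5.24 in HCR sedentary rats, and 4.69 to 4.97 in LCR trained against 4.98 to 5.05 in LCR sedentary rats. Its pooled difference was -0.23 ± 0.05 (adjusted p = 0.186).

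Etv1, a transcription factor of the ETS family, read 7.10, 7.02, 7.61 and 7.37 in HCR trained rats, against 7.85, 7.69, 7.39 and 7.68 in HCR sedentary rats. For LCR, trained rats read 7.17, 7.50, 7.14 and 7.24, against 7.78, 7.82, 7.58 and 7.90 in LCR sedentary rats. HCR sedentary rat 5, the array of low Xist, was the sedentary rat closest to the trained ones. The pooled difference was -0.44 ± 0.09 (adjusted p = 0.186), and without that rat -0.49 (adjusted p = 0.242). A second Etv1 probe set differed by -0.35 in HCR and in LCR alike, and the other 3 by -0.04, -0.11 and -0.20.

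Igfbp5, a binding protein that carries insulin-like growth factors, had the largest difference of the 15 lower genes of lowest p, at -0.53 ± 0.11 (adjusted p = 0.186). It read 8.34, 8.64, 8.60 and 8.49 in HCR trained rats, against 8.83, 8.59, 8.79 and 8.91 in HCR sedentary rats. Among LCR rats, the trained ones read 8.39, 8.27, 7.95 and 8.75, against 9.19, 8.98, 9.07 and 9.33 in LCR sedentary rats. Groups overlapped in HCR and were apart in LCR, and the difference was -0.80 ± 0.13 in LCR but -0.26 ± 0.13 in HCR (interaction adjusted p = 0.475, limma). Igfbp5 had the same direction in both lines, and its other 4 probe sets differed by -0.09 to -0.27. Nrep, a neuronal regeneration-related protein, had the same form, with -0.53 ± 0.08 in LCR and -0.13 ± 0.08 in HCR (interaction adjusted p = 0.475, limma).

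Further genes lower in trained rats were Cenpk, a kinetochore protein (-0.27 ± 0.06), Gins4 of the replicative helicase (-0.24 ± 0.06, with -0.36 in LCR and -0.12 in HCR) and Rfc5 of the clamp loader (-0.21 ± 0.05). Bex3, an X-linked adaptor protein, differed by -0.28 ± 0.06 and on its brighter probe set by -0.19, and Mageh1, a member of the MAGE family, by -0.22 ± 0.05. Fabp5, a fatty acid binding protein, differed by -0.26 ± 0.06, with -0.26 in HCR and -0.27 in LCR. Dcaf15, a substrate receptor of a cullin ubiquitin ligase, differed by -0.20 ± 0.04, Zfp423, a zinc finger transcription factor, by -0.34 ± 0.08, and Zfp939 by -0.18 ± 0.04. The Zfp423 difference was -0.52 in LCR and -0.17 in HCR, and its other probe sets differed by only -0.06 to -0.12. Gart, an enzyme of purine synthesis, differed by -0.27 ± 0.07, but its second probe set differed by 0.20, so its direction is not settled.

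A second criterion did not pool the lines: all 4 trained rats above, or below, all 4 sedentary rats in HCR and again in LCR. It held for 27 higher probe sets (0.087% of those tested, 22 with 1 gene symbol) and 10 lower ones (0.0322%, 8 with 1 symbol). For comparison, 30 probe sets (0.0966%) separated in both lines in opposite directions, 18 of them higher in trained HCR and lower in trained LCR and 12 the other way. The number that separated alike, 37, was thus close to the number that separated in opposite ways. Besides genes already described, the higher set held Tatdn2 (0.27 ± 0.06), Slc19a2, a thiamine transporter (0.25 ± 0.07), Atosb (0.21 ± 0.05), Plbd1 (0.20 ± 0.05), the deubiquitinase Otud7b (0.19 ± 0.05) and Rptor, the scaffold of the mTORC1 growth kinase complex (0.16 ± 0.04). A further probe set of Otud7b differed by -0.05. The other named genes of the higher set were Card19, Dcun1d1, Fuom, Gmps, Lrrc23, Psmg1, Slc25a15, Yif1a and Zfand3. The lower set held Gpr176, a G protein-coupled receptor (-0.19 ± 0.05), the kinase Dapk2 (-0.15 ± 0.04), Ttc9c (-0.14 ± 0.04), Fkbp1a, which binds ryanodine receptors (-0.13 ± 0.04), and 1 probe set of the clock gene Per2 (-0.11 ± 0.04). Other probe sets of Gpr176 (0.06 and 0.02), Dapk2 (0.01 and 0.04) and Fkbp1a (0.02 and 0.01) did not share that direction. Some margins were very narrow, with the nearest trained and sedentary rats equal to 2 decimals. In HCR this held for Slc19a2 (7.20), Otud7b (7.17) and Rptor (7.43), and in LCR for Plbd1 (10.30) and Dapk2 (4.94). With HCR sedentary rat 5 left out, when 3 rather than 4 sedentary HCR rats had to be cleared, 30 probe sets were higher and 17 lower. The counts were highest without LCR trained rat 2, at 65 higher and 42 lower.

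Over all 31042 probe sets, the training differences of the lines, which share no array, were almost unrelated: r was 0.0379 and Spearman's rho -0.00995, and 47.9% had the same sign. The correlation was 0.171 without LCR trained rat 2 and -0.102 without LCR trained rat 4. These are descriptions across probe sets, which are not independent of each other. The training difference of each line, taken from a model of the 4 group means on all 16 arrays, had few calls by limma, 0 probe sets in HCR (0%, with 13.9% at an unadjusted p under 0.05, or 4308) and 1 in LCR (0.00322%), which has no gene name here, with 1728 (5.57%) at an unadjusted p under 0.05. Fits on the 8 arrays of a line alone called 2 in HCR and 0 in LCR. The interaction had 0 calls (3068 at an unadjusted p under 0.05, 9.88%).

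**Figure D2:**
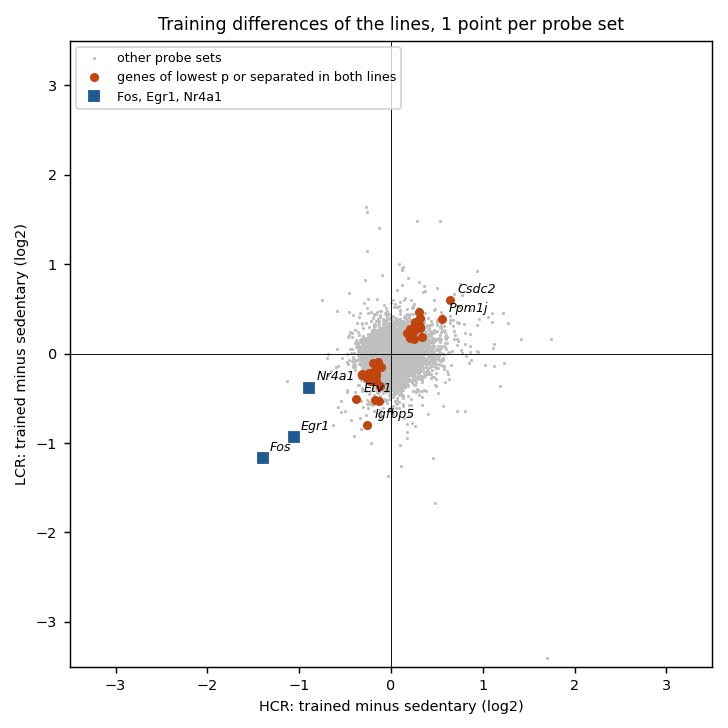
Trained minus sedentary difference (log2) of each of the 31042 probe sets in HCR (horizontal axis) and in LCR (vertical axis), with the genes of lowest p or separated in both lines as red circles and 3 immediate early genes as blue squares. The cloud shows little common slope (r 0.0379), and Fos, Egr1 and Nr4a1 lie far out where both lines are lower in trained rats.

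The lists and their members were chosen with earlier results of these data known. Counts of members set beside all genes, here and below, are therefore descriptions and not tests. Of the 29 pathway lists, the immediate early genes had the lowest median. All 21 measured members were lower in trained rats, 15 of them in both lines, with a median difference of -0.165 (-0.25 in HCR and -0.179 in LCR), against a median of -0.00358 over 14217 genes. At an unadjusted p under 0.05, 9 of 21 were lower and 0 higher, where 4.47% of all genes were lower and 5.34% higher. Over all genes, 24% were lower in both lines and 24% higher in both. Limma called 0 of the 21 after adjustment. Without HCR sedentary rat 5, 20 of 21 were lower, 8 at an unadjusted p under 0.05, and the median was -0.167.

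Fos, the founding member of the AP-1 transcription factors, read 8.28, 6.89, 5.94 and 6.05 in HCR trained rats, against 6.78, 8.99, 8.59 and 8.39 in HCR sedentary rats. In LCR the trained rats read 6.31, 7.69, 7.29 and 7.69, against 7.01, 8.15, 8.64 and 9.86 in LCR sedentary rats. The groups overlapped in both lines: HCR trained rat 3 was high, and HCR sedentary rat 3 and LCR sedentary rat 2 were low. The difference was -1.40 ± 0.60 in HCR and -1.17 ± 0.60 in LCR, and the pooled 95% interval ran from -2.15 to -0.41 (adjusted p = 0.43). Leaving out the low-Xist rat gave -1.21 for Fos (adjusted p = 0.652). A dimmer Fos probe set, with a mean of 5.95, differed by -0.02.

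Egr1, a zinc finger transcription factor of the same early wave, read 8.50, 7.72, 7.84 and 7.88 in HCR trained rats, against 7.82, 9.65, 9.46 and 9.23 in HCR sedentary rats. The LCR trained rats read 7.22, 8.07, 7.68 and 8.32, against 7.87, 9.07, 8.40 and 9.69 in LCR sedentary rats. The same 2 sedentary rats were low here, and the pooled difference was -0.99 ± 0.27 (fold 0.502, adjusted p = 0.336), with -1.06 in HCR and -0.93 in LCR. Nr4a1, an orphan nuclear receptor, read 7.68, 7.08, 7.06 and 7.23 in HCR trained rats, against 7.18, 8.21, 8.53 and 8.71 in HCR sedentary rats. For LCR, trained rats read 7.52, 7.31, 6.95 and 7.67, against 6.86, 7.66, 7.80 and 8.64 in LCR sedentary rats. Again HCR sedentary rat 3 and LCR sedentary rat 2 were the low ones of their groups, and the pooled difference was -0.64 ± 0.24 (adjusted p = 0.502).

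Ier2, an early nuclear protein, had the lowest p of the list, at -0.35 ± 0.09 (adjusted p = 0.318). It read 7.62, 7.37, 7.28 and 7.23 in HCR trained rats, against 7.37, 7.75, 7.89 and 7.60 in HCR sedentary rats, and 7.49, 7.02, 7.33 and 7.41 in LCR trained rats, against 7.45, 7.65, 7.91 and 7.90 in LCR sedentary rats. In LCR the lowest sedentary rat, at 7.45, lay under the highest trained rat, at 7.49, and in HCR trained rat 3 lay above 2 of the sedentary rats. Smaller differences were those of Klf2 (-0.29 ± 0.11) and Klf4 (-0.24 ± 0.08), transcription factors that respond to blood flow in the vessel wall, of Dusp1, a phosphatase that turns off MAP kinases (-0.26 ± 0.10), and of the AP-1 members Junb (-0.23 ± 0.10) and Fosb (-0.23 ± 0.10). Averaged over its 21 members and centred on all arrays, the list ran from -0.30 to 0.08 in HCR trained rats against -0.11 to 0.29 in HCR sedentary rats, and from -0.17 to -0.02 in LCR trained rats against -0.15 to 0.43 in LCR sedentary rats. The 21 genes vary together from rat to rat, so they are not 21 separate observations.

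**Figure D3:**
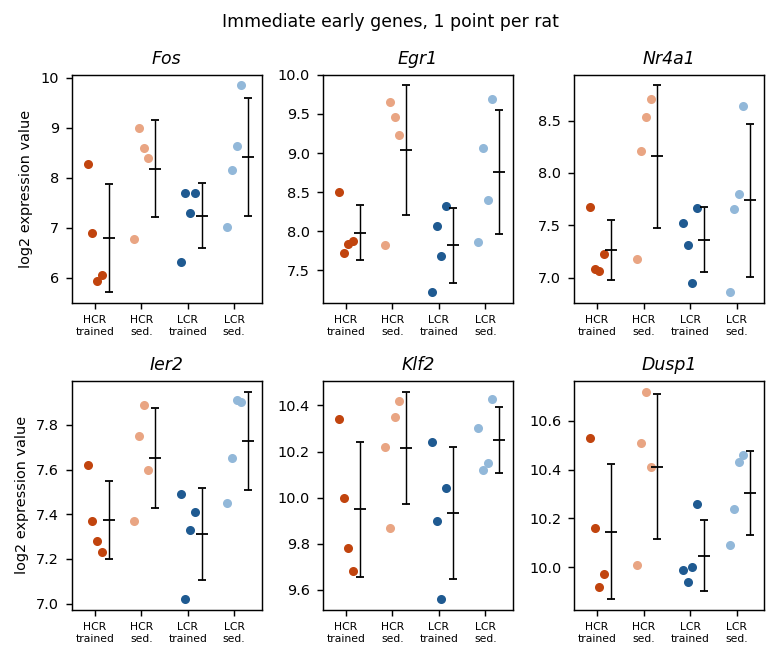
Log2 expression values (vertical axis) of 6 immediate early genes, 1 point per rat, with trained rats left of sedentary rats in each line and the group mean with its SD as the black bar. All 6 have lower trained means in both lines, with Fos at -1.28 and Egr1 at -0.99 pooled, and in each panel the trained and sedentary rats overlap.

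Early genes are known to be read out through the cAMP response element and, for several of them, the serum response element, so the bases before their starts were searched for both motifs in the rat assembly GRCr8 from RefSeq. Of the 21 members 13 had a promoter in that table. The palindrome TGACGTCA, which reads the same on both strands, lay in the 250 bases before the start of 3 of the 13 (Dusp1, Ier2 and Jund), against 1.7% of 27457 promoters. The serum response element, or CArG box, lay in 4 of the 13 (Egr1, Egr2, Klf6 and Zfp36), against 1.5%. The windows of 3 genes are shown because they hold such a motif in genes of the list, with the motif in capitals, read 5′ to 3′ on the gene's strand.
Ier2, chr19:40399123-40399372, plus strand, cAMP response element starting 66 bases before the start: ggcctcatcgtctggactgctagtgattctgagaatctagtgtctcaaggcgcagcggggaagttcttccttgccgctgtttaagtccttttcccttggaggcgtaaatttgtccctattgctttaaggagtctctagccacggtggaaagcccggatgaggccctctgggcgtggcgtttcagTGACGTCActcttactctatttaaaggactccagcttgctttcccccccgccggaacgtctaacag
Dusp1, chr10:17184603-17184852, plus strand, cAMP response element starting 124 bases before the start: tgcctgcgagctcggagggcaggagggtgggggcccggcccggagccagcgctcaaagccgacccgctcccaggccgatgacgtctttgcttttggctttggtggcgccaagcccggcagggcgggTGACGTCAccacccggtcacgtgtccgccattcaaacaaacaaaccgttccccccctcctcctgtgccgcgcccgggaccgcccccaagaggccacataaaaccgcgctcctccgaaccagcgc
Zfp36, chr1:92799109-92799358, minus strand, CArG box starting 32 bases before the start: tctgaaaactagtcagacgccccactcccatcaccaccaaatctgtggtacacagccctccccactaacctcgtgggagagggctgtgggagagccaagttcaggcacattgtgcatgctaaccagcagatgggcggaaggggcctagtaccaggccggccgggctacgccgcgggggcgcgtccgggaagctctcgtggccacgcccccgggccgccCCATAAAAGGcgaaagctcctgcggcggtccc
A match is a description of the letters only. Among the 3 genes shown, Ier2 differed by -0.35 and Dusp1 by -0.26, and Zfp36, which destabilises messenger RNA, by -0.16, with the same sign in both lines.

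Cell cycle genes were lower in trained rats in 18 of 21 measured members, 13 of them in both lines, with a median of -0.0744. By comparison, 48.1% of all genes were higher and 24% were lower in both lines. At an unadjusted p under 0.05, 7 were lower and 0 higher, against the 4.47% of all genes given above, and limma called 0. Among the members of the replicative helicase, Mcm6 read 5.08, 5.12, 5.10 and 5.29 in HCR trained rats, against 5.38, 5.42, 5.19 and 5.11 in HCR sedentary rats, and 5.24, 5.06, 4.99 and 5.15 in LCR trained rats, against 5.40, 5.48, 5.39 and 5.39 in LCR sedentary rats. Its groups overlapped in HCR and were apart in LCR (-0.21 ± 0.06, adjusted p = 0.308). Mcm5 differed by -0.26 ± 0.08, with -0.14 in HCR and -0.38 in LCR. Mcm2 had -0.51 in LCR and -0.01 in HCR (interaction adjusted p = 0.475, limma), and -0.26 pooled. Ccnb1, a cyclin of mitosis, differed by -0.16 in both lines, and Cdkn1c, which inhibits cyclin-dependent kinases, by -0.20 ± 0.07, while the 2 proliferation markers Mki67 (-0.04) and Top2a (-0.02) were near 0. The signal of Mcm6, with group means of 5.11 to 5.41, was below the array medians of 5.85 to 5.95. That of Ccnb1, with group means of 5.96 to 6.19, was near those medians. Leaving out HCR sedentary rat 5, 17 of 21 were lower and 7 at an unadjusted p under 0.05, with a median of -0.056.

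Genes of fatty acid oxidation were higher in trained rats in 19 of 23 members, 15 of them in both lines, by a median of 0.0415. The shares over all genes were 48.1% higher and 24% higher in both lines. At an unadjusted p under 0.05, 4 were higher, against 5.34% of all genes, and 0 lower, and limma called 0. Eci2, which isomerises double bonds of unsaturated fatty acids, read 10.68, 10.74, 10.69 and 10.67 in HCR trained rats, against 10.49, 10.48, 10.59 and 10.59 in HCR sedentary rats. Among LCR rats, the trained ones read 10.61, 10.69, 10.79 and 10.53, against 10.35, 10.57, 10.47 and 10.51 in LCR sedentary rats. HCR groups were apart and LCR groups overlapped at 10.53 against 10.57, and the difference was 0.17 ± 0.04 (adjusted p = 0.312). The fatty acid transporter Slc27a1 differed by 0.25 ± 0.07, the carnitine carrier Slc25a20 by 0.18 ± 0.06, and Decr1, a reductase for unsaturated fatty acids, by 0.21 ± 0.09. The rate-setting muscle enzyme Cpt1b differed by 0.04 ± 0.04, with a 95% interval from -0.05 to 0.12. With HCR sedentary rat 5 left out, 20 of 23 were higher, 3 at an unadjusted p under 0.05.

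Of the 15 measured PPAR targets and fuel switch genes, 11 were higher, 8 of them in both lines, with a median of 0.107. By comparison, 48.1% of all genes were higher and 24% higher in both lines. At an unadjusted p under 0.05, 4 of the 15 were higher, against 5.34% of all genes. The median of the list was 0.209 in LCR and 0.0236 in HCR, a difference that was not tested for the list. Plin5, a lipid droplet coat protein, read 9.24, 9.22, 9.07 and 9.23 in HCR trained rats, against 9.05, 8.85, 8.89 and 9.19 in HCR sedentary rats. In LCR the trained rats read 9.14, 9.43, 9.04 and 8.94, against 8.51, 8.98, 8.51 and 8.84 in LCR sedentary rats. Groups overlapped by 1 rat in each line and the difference was 0.31 ± 0.08 (adjusted p = 0.336). Pnpla2, the triglyceride lipase of fat and muscle, differed by 0.28 ± 0.10, but by 0.47 in LCR and 0.10 in HCR (interaction adjusted p = 0.503, limma), and Pdk4, which inhibits pyruvate dehydrogenase, by 0.93 in LCR and 0.12 in HCR (interaction adjusted p = 0.539, limma). Cidea, a lipid droplet protein, differed by 0.20 ± 0.08. Ucp2, an inner mitochondrial membrane carrier, was on the other side, at -0.43 ± 0.21. Without HCR sedentary rat 5, 10 of 15 were higher.

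Mitochondrial ribosomal proteins were higher in 19 of 22 members, 11 in both lines, with a median of 0.109 in HCR and 0.00647 in LCR, and 3 were higher at an unadjusted p under 0.05. Those 3 were Mrpl13 (0.16 ± 0.06), Mrpl34 (0.12 ± 0.04) and Mrpl37 (0.12 ± 0.05). Of 15 fusion and fission genes 11 were higher and 4 of these at an unadjusted p under 0.05, among them Mtfp1, Mfn1, which fuses outer membranes (0.17 ± 0.06), and Opa1, which fuses inner membranes (0.20 ± 0.07). Their median was only 0.0142, and 6 of the 15 were higher in both lines. For both lists, the shares over all genes were 48.1% higher, 24% higher in both lines and 5.34% higher at an unadjusted p under 0.05. Respiratory chain subunits were split 13 to 13, with a median of 0.00255. The exception was Cox7a1, the heart and muscle form of a cytochrome oxidase subunit, which read 10.65, 10.39, 10.46 and 10.50 in HCR trained rats, against 9.84, 9.58, 10.42 and 10.22 in HCR sedentary rats. The LCR trained rats read 10.15, 10.61, 10.11 and 10.50, against 9.48, 10.03, 9.92 and 9.96 in LCR sedentary rats. LCR groups were apart and HCR groups overlapped slightly, at a fold of 1.40 (0.49 ± 0.11, adjusted p = 0.267). Pooled over lines, Ppargc1a, the co-activator that drives mitochondrial biogenesis, differed by 0.00 ± 0.08 (95% interval -0.16 to 0.16), and citrate synthase, Cs, by -0.01 ± 0.04 (-0.10 to 0.08). Another Ppargc1a probe set, with a mean of 8.89, differed by 0.01 pooled, but by 0.21 in HCR and -0.19 in LCR.

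Glycolysis and glucose uptake genes were higher in 18 of 22 members, 4 at an unadjusted p under 0.05, against 5.34% of all genes. In both lines 6 of 22 were higher, near the 24% of all genes, with medians of 0.0534 in HCR and -0.0137 in LCR. Eno3, the muscle enolase, read 12.48, 11.76, 12.15 and 12.04 in HCR trained rats, against 11.52, 11.66, 11.07 and 11.20 in HCR sedentary rats. For LCR, trained rats read 11.99, 12.48, 11.75 and 12.48, against 11.72, 12.02, 11.72 and 11.87 in LCR sedentary rats. The groups were apart in HCR and overlapped in LCR, and the difference was 0.54 ± 0.13 (fold 1.46, adjusted p = 0.267). Slc2a4, the insulin-sensitive glucose transporter, differed by 0.15 ± 0.06.

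All 22 measured genes of the proteasome and of the ubiquitin ligases and Foxo factors of muscle atrophy had a pooled difference above 0, where 48.1% of all genes did. The differences were small, with a median of 0.0572, none was at an unadjusted p under 0.05, and 15 were higher in both lines, where 24% of all genes were. Leaving out HCR sedentary rat 5, 17 of 22 were above 0. Averaged over the 22 members and centred on all arrays, the groups overlapped. HCR trained rats ran from -0.20 to 0.04 and HCR sedentary rats from -0.16 to -0.03. LCR trained rats ran from -0.09 to 0.19 and LCR sedentary rats from 0.01 to 0.10. The 22 genes come from the same rats and are not 22 separate observations. The brighter probe sets of the arrays had a median difference of 0.0366 in HCR and -0.00762 in LCR. Psmb2 of the core differed by 0.07 ± 0.04. Psmd11, a subunit of the regulatory particle, differed by 0.08 ± 0.05 on its brightest probe set, but by 0.02 and -0.13 on 2 others. The ligase Trim63 differed by 0.35 in HCR and by -0.15 in LCR (interaction adjusted p = 0.475, limma), against 0.10 ± 0.10 pooled.

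**Figure D4:**
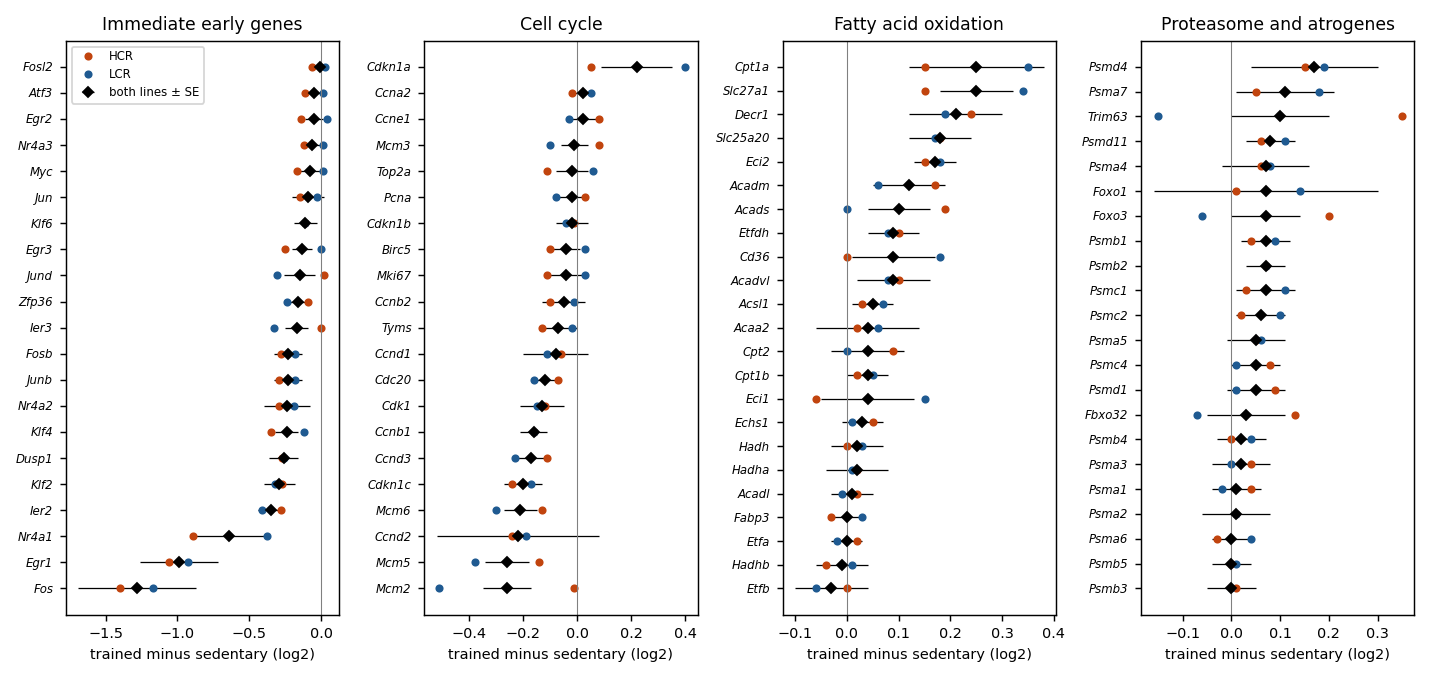
Trained minus sedentary difference (log2, horizontal axis) of every measured member of 4 lists, with the pooled value and its SE in black, HCR in red and LCR in blue, sorted by the pooled value. Fos, Egr1 and Nr4a1 stand apart from the other 18 immediate early genes, most cell cycle members lie below 0 and most fatty acid oxidation members above it, and proteasome members lie close to 0.

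The circadian list was split, 10 of 17 higher and 7 lower, with 4 and 3 of them at an unadjusted p under 0.05. Of all genes, 5.34% were higher and 4.47% lower at that p. Nr1d2, a repressor of the clock, read 7.89, 7.86, 7.19 and 7.45 in HCR trained rats, against 6.83, 7.38, 7.00 and 7.02 in HCR sedentary rats. Among LCR rats, the trained ones read 7.64, 7.62, 7.87 and 7.73, against 7.61, 7.49, 7.34 and 7.46 in LCR sedentary rats. LCR groups were just apart and HCR groups overlapped, with a difference of 0.39 ± 0.10 (adjusted p = 0.31), and a second probe set of Nr1d2 differed by 0.31. The activators Npas2 (0.37 ± 0.12), Clock (0.16 ± 0.07) and Bmal1 (0.14 ± 0.06) were also higher, while the repressor Per1 differed by -0.16 ± 0.05. A dimmer probe set of Clock differed by -0.15. The labels do not state the clock time at which hearts were taken.

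Contractile and calcium cycling genes went both ways. The sarcomere list was 12 higher to 9 lower with a median of 0.00146, and the calcium cycling list 9 to 8 with a median of 0.00556. At an unadjusted p under 0.05, 1 calcium cycling member was higher and 2 lower, against 5.34% and 4.47% of all genes. Ryr2 differed by 0.12 ± 0.05, with 0.17 in HCR and 0.06 in LCR. S100a1 differed by -0.16 ± 0.07, with -0.02 in HCR and -0.31 in LCR. Atp2a2, the calcium pump of the sarcoplasmic reticulum, differed by 0.01 ± 0.03, its inhibitor Pln by 0.01 ± 0.03, Myh6, the fast myosin heavy chain, by 0.06 ± 0.05 and Myh7, the slow one, by -0.11 ± 0.15. Signals of Atp2a2, Pln and Myh6 lay near the top of the scale, between 13.62 and 14.03. Dimmer probe sets of Atp2a2 differed by 0.10 (mean level 10.9) and 0.19 (9.59), and one of Myh6 by 0.37 (10.76). Of the 21 measured sarcomere members, 2 were higher at an unadjusted p under 0.05, against 5.34% of all genes. Among these was the giant spring protein titin, Ttn, at 0.19 ± 0.07 (adjusted p = 0.502). Titin differed by 0.35 in HCR, where the groups were apart, and by 0.04 in LCR. The natriuretic peptide genes were Nppb at -0.03 ± 0.13 and Nppa at -0.15 ± 0.23, the second of these with 0.21 in HCR and -0.50 in LCR. Cited4, a transcription co-regulator linked to growth of the trained mouse heart, read 6.54, 6.43, 6.57 and 6.58 in HCR trained rats, against 6.86, 6.61, 6.95 and 6.71 in HCR sedentary rats. In LCR the trained rats read 6.98, 6.77, 6.62 and 6.82, against 6.78, 7.00, 7.03 and 7.07 in LCR sedentary rats. It was apart in HCR and overlapped in LCR, at -0.21 ± 0.06 (adjusted p = 0.368). Among growth factors, Igf1 differed by 0.22 ± 0.09, with 0.38 in LCR and 0.07 in HCR, and Vegfa, the endothelial growth factor, by 0.27 in HCR and -0.07 in LCR, on its brighter probe set (interaction adjusted p = 0.475, limma). A dimmer Vegfa probe set, with a mean of 8.11, was higher in both lines, by 0.25 in HCR and 0.17 in LCR. The collagens Col1a1 (0.10 ± 0.12) and Col3a1 (-0.03 ± 0.12) had wide intervals around 0. The matrix gene Lox differed by 0.28 ± 0.07 (adjusted p = 0.267, limma), with 0.32 in HCR and 0.25 in LCR. Its groups were apart in HCR only, and its second probe set differed by 0.23. Eln differed by 0.18 ± 0.05 (adjusted p = 0.407, limma), with 0.11 in HCR and 0.24 in LCR. Of the 30 measured collagen and matrix members, 19 were higher and 11 lower, with a median of 0.0353. The unadjusted p was below 0.05 for 2 of the 19 and 1 of the 11.

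Markers of other cell types were compared in the same way. All 7 measured markers of atrial cardiomyocytes were lower in trained rats, 5 of them in both lines, with a median of -0.174 (-0.274 without HCR sedentary rat 5) and 2 at an unadjusted p under 0.05. Of all genes, 48.1% were higher, 24% were lower in both lines and 4.47% were lower at an unadjusted p under 0.05. Myl4, the atrial essential light chain, read 7.24, 7.65, 6.88 and 7.02 in HCR trained rats, against 7.57, 7.54, 6.78 and 8.51 in HCR sedentary rats. The LCR trained rats read 7.43, 7.73, 7.24 and 8.08, against 8.52, 8.33, 7.94 and 9.37 in LCR sedentary rats. HCR sedentary rat 6 and LCR sedentary rat 6 were each the highest of their line, groups overlapped in both lines, and the difference was -0.66 ± 0.23 (adjusted p = 0.471). Sln, the atrial inhibitor of the calcium pump, differed by -0.27 ± 0.10 and Myl7, the atrial regulatory light chain, by -0.72 ± 0.47. The level of the 7 markers ran from -0.39 to 0.22 in HCR trained rats against -0.06 to 0.57 in HCR sedentary rats, and from -0.58 to 0.18 in LCR trained rats against -0.14 to 0.18 in LCR sedentary rats. Their part in the other results was not tested. Macrophage markers were higher in 8 of 11 (median 0.125, 0 at an unadjusted p under 0.05), endothelial markers split 6 to 5 and ventricular cardiomyocyte markers 6 to 5 (medians 0.0124 and 0.00556). Skeletal muscle markers were lower in 11 of 12, 6 of them in both lines and 0 at an unadjusted p under 0.05. Their medians were -0.0316 in HCR and -0.23 in LCR. LCR sedentary rat 5 was far above the rest, at a level of 1.27 against -0.34 to 0.55 in the other 15 rats.

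**Figure D5:**
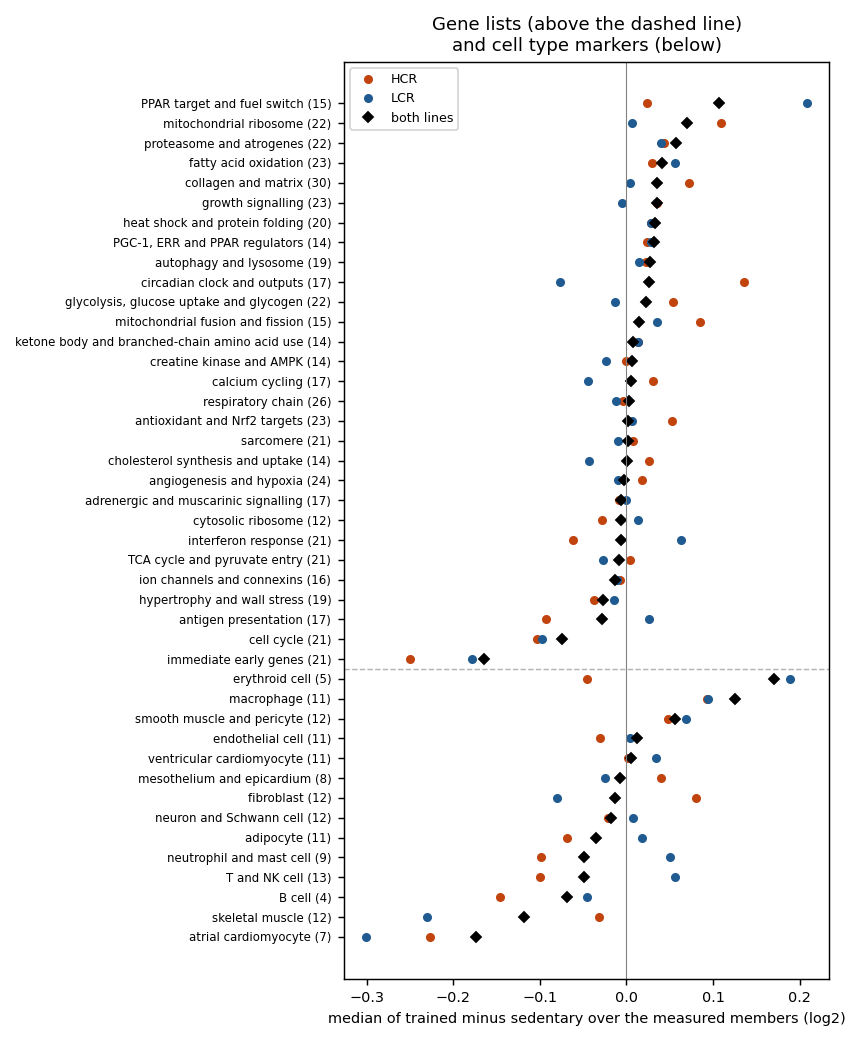
Median trained minus sedentary difference (log2, horizontal axis) over the measured members of each pathway list and each cell type marker list, pooled in black, HCR in red and LCR in blue, with the number of members in brackets. Immediate early genes (-0.165) and atrial markers (-0.174) have the lowest pooled medians, and most other lists lie within 0.1 of 0.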

How the data were processed

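Left ventricle RNA of 16 rats was hybridised to 1 Affymetrix rat expression array per rat. According to the submitters' processing notes, RMA (background correction, normalization between arrays, summary of the probes of a set) and limma were used, with no version stated. The log base is not stated, and the values, between 3.24 and 14.54 in the table as deposited, were taken as log2 values that the authors made with RMA. No count or depth exists for arrays, so the number of arrays limits the precision.

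Of 31099 probe sets 57 controls were left out and 31042 tested. Of these, 20826 had 1 gene symbol in the platform annotation, 436 had several and 9780 are unnamed here. A gene was represented in lists by its brightest probe set, giving 14217 genes. Limma 3.58.1 in R 4.3.3 was fitted with lmFit and eBayes on all 16 arrays, with line and training as terms (13 residual degrees of freedom), and adjusted by Benjamini-Hochberg over all probe sets. Line-specific differences and the interaction came from a model of the 4 group means. Errors of differences are standard errors, and tests are 2-sided. The model was tested on simulated data first.

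Named genes were drawn from the 15 per direction of lowest p with the same sign in both lines, up to 12 per direction among those separated in both lines, 25 preset genes and the 2 members of lowest p of each list. Not every list, and not every gene picked by these rules, is described here. Further members, and Dnah7, Ivns1abp, Cbr3, Gstt3 and Akip1, were named after their values were seen. The members and lists were chosen with earlier results of these data known. The titles number the rats, which were treated as separate animals. Promoters are 250 bases before RefSeq starts in GRCr8.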

Additional observations from a re-analysis of the deposited data

Results flagged for a closer look

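In each group of 4 rats, the highest or lowest rat was marked where its gap to the next one exceeded Dixon's 95% critical value. Over 448 groups (108 of the named probe sets, and Xist), 22 were marked, 16 of them outside Xist, and chance marks about 1 group in 20.

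Among genes higher in trained rats, P2rx5 stood at 8.04 in LCR sedentary rat 2 (others 7.80 to 7.84) and Tango2 at 6.80 in LCR trained rat 3 (6.48 to 6.53). Otud7b was at 7.41 in LCR trained rat 3 (7.19 to 7.21) and at 6.84 in LCR sedentary rat 2 (7.14 to 7.17). Plin5 was at 9.07 (9.22 to 9.24) and Mfn1 at 9.79 (10.01 to 10.03) in HCR trained rat 5, and Decr1 at 11.81 in HCR trained rat 3 (11.50 to 11.51).

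Among genes lower in trained rats, Cenpk was at 5.31 in HCR sedentary rat 3 (5.47 to 5.50), Fabp5 at 8.74 in LCR trained rat 2 (8.66 in the others), Fkbp1a at 11.16 in LCR sedentary rat 6 (11.03 to 11.05) and Ccnb1 at 6.06 in LCR sedentary rat 5 (6.13 to 6.14). Ucp2 read 10.71 in LCR sedentary rat 2 (11.44 to 11.55).

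Of the genes near 0, Nppb read 12.09 in LCR sedentary rat 2 (11.52 to 11.56). Atp2a2 was at 14.02 in LCR trained rat 1 (13.98 to 13.99) and at 14.03 in LCR sedentary rat 6 (13.96 to 13.97), and Pln at 13.73 in LCR trained rat 3 (13.70).

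Xist in HCR sedentary rat 5 read 4.54, 4.36, 3.76 and 4.94 on its 4 probe sets. On single probe sets it also stood apart at 7.99 in HCR trained rat 6 (8.91 to 9.09) and at 8.25 in LCR sedentary rat 2 (8.12 to 8.14).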

How the results depend on the processing

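For 108 of the named probe sets, 26 other settings were tried, 16 of which left out 1 rat. Of 2789 values, 2755 kept their direction and side of the threshold and 8 newly passed. A further 26 changed sign, in 5 probe sets, all near 0. Limma called 0 probe sets lower under every setting. Called higher were 0 in the reported fit, 1 with 1 probe set per gene, 1 with a trended, robust prior, 2 with the 2 lines' differences averaged in a group-means model, 6 with array weights, and 0 to 7 with 1 rat left out. The 7, seen without LCR trained rat 2, held Ppm1j, Ocrl and Sestd1, each at an adjusted p of 0.0416. Without LCR trained rat 1 there was 1 (unnamed), and without LCR trained rat 3 there was 1 (Ppm1j). Fits on 1 line alone called 2 probe sets in HCR, against 0, and 0 in LCR, against 1. At an unadjusted p under 0.05 there were 1382 with 1 probe set per gene and 1501 among brighter probe sets, where fewer were tested, 3647 with array weights, and 1908 to 4192 with 1 rat left out (4192 without LCR trained rat 2).

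Probe sets separated in both lines numbered 17 higher and 17 lower when the deposited values were quantile normalized again. The lower count was 3 among brighter probe sets and 3 with 1 probe set per gene. With 1 rat left out, which leaves fewer rats to separate, they ran from 30 to 65 higher and from 11 to 42 lower. The correlation of the lines ran from -0.102 to 0.171. Signs turned for Cs (0.004 with arrays centred on medians), Pln (-0.005 with quantile normalization) and Ppargc1a (-0.031 with quantile normalization, -0.036 with the interquartile range as covariate). With 1 rat left out the ranges were -0.026 to 0.006 for Cs, -0.001 to 0.015 for Pln, -0.036 to 0.054 for Ppargc1a, -0.102 to 0.028 for Nppb and -0.074 to 0.076 for Col3a1. The causes were not tested.

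Rat numbers gave no clear pairing: same-numbered rats had correlations of deviations of -0.0518 to 0.235 in HCR and -0.231 and -0.0312 in LCR. Rats of different numbers had -0.324 to 0.268 in HCR and -0.318 to 0.377 in LCR. With so few same-numbered rats, these values cannot decide whether the numbers mark pairs. With a replicate block, 0 probe sets were called (lowest adjusted p 0.106, 2778 at an unadjusted p under 0.05), and Cs was at 0.025 and Ppargc1a at -0.038.

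With 4 rats per group and a median standard error of 0.0562, small differences could not be detected, and signals of 5 or below are close to the low end of the scale, which starts at 3.24.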

Other observations

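A few genes outside the lists had larger differences than most named genes and wide spreads, and they were picked after their values were seen. Dnah7, a dynein heavy chain of motile cilia, read 5.14, 5.73, 5.16 and 5.73 in HCR trained rats, against 6.83, 6.47, 5.27 and 5.74 in HCR sedentary rats. In LCR it read 5.24, 5.38, 5.10 and 6.25 in trained rats, against 6.21, 6.16, 6.79 and 6.00 in sedentary rats. Groups overlapped in both lines, and the pooled difference was -0.72 ± 0.21 (limma adjusted p = 0.369). Gstt3, a glutathione transferase, differed by -0.60 ± 0.19 (adjusted p = 0.416), with -0.54 in HCR and -0.65 in LCR.

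On the higher side, Cbr3, a carbonyl reductase, differed by 0.76 ± 0.33 (adjusted p = 0.541), with 0.75 in HCR and 0.78 in LCR, and Ivns1abp, which binds actin, by 0.62 ± 0.20 (adjusted p = 0.43). Akip1, which binds the catalytic subunit of protein kinase A, differed by 0.49 ± 0.18 on its brightest probe set (0.67 in HCR and 0.31 in LCR). Its 3 next brightest probe sets differed by 0.56, 0.67 and 0.67, and the 4 dimmer ones by -0.05 to 0.10.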
